A study of Homo sapiens with 9 samples.

Results

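The EGFR family genes followed here were 10 of the 58735 genes in the deposited table. They were chosen by name, with earlier results of these data known, so their counts beside all genes are descriptions. They were the receptors EGFR, ERBB2 and ERBB3, the ligands AREG, EREG, HBEGF, TGFA, BTC and NRG1, and the inhibitor ERRFI1. All 10 had enough counts to be tested. Their RNA was measured in MDA-MB-231, an established triple-negative breast cancer line, in 9 RNA-seq libraries, 3 per group. Vehicle cells had received DMSO, erastin-R cells had been treated with erastin, and RSL3-R cells with RSL3. The study describes both treated groups as survivors of rising drug concentrations. Erastin blocks cystine uptake and RSL3 blocks the lipid peroxidase GPX4, and both trigger ferroptosis, an iron-dependent cell death by lipid peroxidation. The question was which genes differ in cells that live through these drugs. All groups are the same cell line, and the doses and days behind the libraries are not in the labels. The labels do not say whether replicates were separate cultures, so p-values measure the spread between these libraries, which may be technical.

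EGFR family receptors are membrane tyrosine kinases that pair up when a ligand binds and then feed the RAS-ERK and PI3K-AKT pathways. ERBB2 has no known ligand of its own and acts as a partner, and ERBB3 has a weak kinase and signals through its partners. The ligands are made as membrane-bound precursors that proteases such as ADAM17 cut free. ERRFI1, also called MIG6, is a feedback inhibitor that binds the kinase domain of the receptors. In triple-negative breast cancer EGFR is commonly present, while ERBB2 is not amplified.

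The libraries held 15405102 to 17273464 counts. Erastin-R replicate 1 stood apart. Its squared difference from erastin-R replicates 2 and 3, relative to counting error and averaged over genes, was 28.8 and 28.0, against 2.58 to 6.07 for every other pair within a group. Of the markers of the line, VIM, CD44, ZEB1 and AXL were abundant in every library, while SPARC had only 33 to 73 counts. Of the markers of other cell types, 5 of 6 luminal and 2 of 3 endothelial genes exceeded 3 counts in some library. Luminal markers summed to 2.97 to 3.11 FPKM in vehicle, 2.33 to 3.34 in the erastin-R libraries and 2.56 to 3.12 in those of RSL3-R, with ESR1 at 1 to 12 counts and PGR at 0 to 2. Within this list EPCAM was 0.679 to 1.12 FPKM in vehicle and 0.373 to 0.598 in the erastin-R libraries, and CDH1 was 0.138 to 0.267 FPKM in vehicle and 0.518 to 0.611 in the RSL3-R libraries, neither overlapping. Of the leukocyte markers, CD14 was 1.81 to 2.14 FPKM in vehicle, 0.665 to 0.958 in the erastin-R libraries and 1.37 to 1.93 in those of RSL3-R, while CD3E had 0 to 4 counts. PTPRC was 0.0266 to 0.0707 FPKM in vehicle, 0.0197 to 0.0701 in the erastin-R libraries and 0.133 to 0.161 in those of RSL3-R. The endothelial markers summed to 1.24 to 1.42 FPKM in vehicle, 0.198 to 0.301 in the erastin-R libraries and 1.502 to 1.797 in those of RSL3-R, nearly all of it PECAM1, with CDH5 at 0 to 3 counts. Their part in the results was not tested. In such bulk samples, fewer cells of a type and less RNA per cell cannot be told apart.

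Levels are given per library as CPM, counts divided by the TMM-scaled library size, and changes as log2 fold changes. Adjusted p-values are from edgeR's quasi-likelihood test with Benjamini-Hochberg adjustment over the 16188 genes tested. A gene rose or fell where this value was under 0.05, and it was called where its log2 fold change was also at least 1 in size. In erastin-R cells 4 members rose, 4 fell and 2 did not pass, and the same test passed 54.0% of all genes (27.1% higher, 26.8% lower). In RSL3-R cells 6 members rose, 3 fell and 1 did not pass, against 48.7% of all genes (23.8% higher, 24.9% lower). AREG rose and BTC fell past the called threshold in erastin-R cells, where 13.4% of all genes were called (6.70% higher, 6.66% lower). Only ERRFI1 among the members was called in RSL3-R cells, where 10.1% of all genes were called (6.02% higher, 4.08% lower). The libraries of 8 members did not overlap those of vehicle in erastin-R cells and those of 9 members in RSL3-R cells, beside 57.9% and 61.9% of all genes. The members' median log2 fold change was 0.012 with erastin and 0.55 with RSL3, and that of all genes tested was -0.0042 and 0.0052. The 2 comparisons share their vehicle libraries. Without erastin-R replicate 1 the counts of members that rose and fell in erastin-R cells were again 4 and 4. The share of all genes that passed without that library is not given here.

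**Figure D1:**
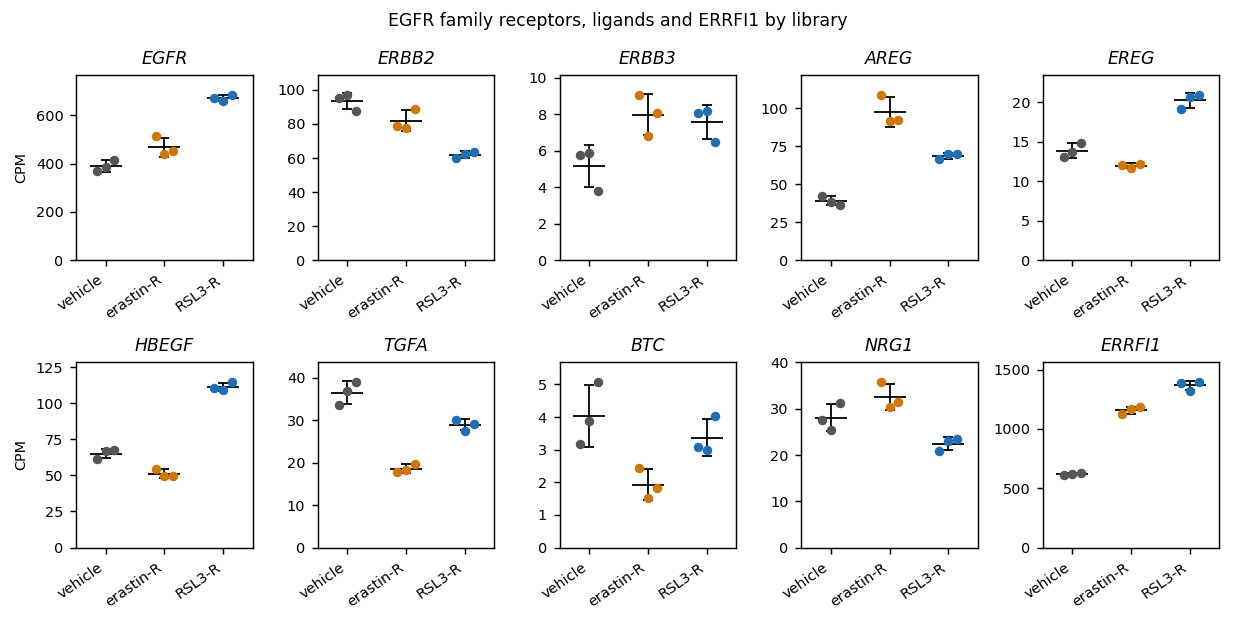
Each panel plots 1 gene, with CPM on the vertical axis from 0 and the 3 libraries of each group as points; the bar and whiskers are the mean and SD (n = 3). ERRFI1 and AREG lay higher in both treated groups, while HBEGF lay lower in erastin-R (49.4 to 54.6) and higher in RSL3-R cells (109 to 114) than in vehicle cells (61.2 to 67.4).

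Among the receptors, EGFR rose and ERBB2 fell in both treated groups, and both moved further in RSL3-R than in erastin-R cells. The fall of ERBB2 in erastin-R cells was small and did not pass in 7 of 14 alternatives. EGFR lies on chromosome 7 at chr7:55019021-55211628 on the plus strand (GRCh38, as all coordinates here). Its level was 369, 386 and 417 CPM in vehicle, 513, 439 and 454 in erastin-R and 671, 660 and 684 in RSL3-R cells. The groups did not overlap, and the RSL3-R libraries were the highest. EGFR rose 1.20-fold in erastin-R cells (log2 fold change 0.26, SE 0.07, edgeR adjusted p = 0.00455) and 1.72-fold in RSL3-R cells (0.78, SE 0.07, adjusted p = 5.07e-07). The antisense gene EGFR-AS1, at 0 to 27 counts, shares 1.49% of the EGFR exon length. Without erastin-R replicate 1, which had the highest EGFR level of its group, the log2 fold change in erastin-R cells was 0.19.

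ERBB2, the ligand-less partner receptor (chr17:39687914-39730426, plus strand), went the other way. Its level was 95.3, 96.9 and 87.8 CPM in vehicle, 79.0, 77.7 and 88.9 in erastin-R and 59.8, 62.6 and 63.6 in RSL3-R cells. The RSL3-R libraries were below all others, but erastin-R replicate 3 lay above vehicle replicate 3. ERBB2 fell 1.51-fold in RSL3-R cells (log2 fold change -0.59, SE 0.07, edgeR adjusted p = 1.21e-05). For erastin-R the log2 fold change was -0.19 (SE 0.07, adjusted p = 0.0352), and it did not pass in 7 of 14 alternatives. Among these, the adjusted p was 0.0965 without vehicle replicate 1, 0.123 without vehicle replicate 2, 0.126 without erastin-R replicate 2 and 0.0529 without RSL3-R replicate 3. Of the ERBB2 exon length, 5.53% overlaps MIEN1 and 1.88% overlaps PGAP3 on the opposite strand, and whether counting used strand is not stated.

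ERBB3, the neuregulin receptor with a weak kinase (chr12:56076799-56103505, plus strand), was the lowest of the 3 receptors by FPKM. It had 3.82 to 5.87 CPM in vehicle, 6.81 to 9.05 in the erastin-R libraries and 6.49 to 8.20 in those of RSL3-R, so both treated groups lay above vehicle and overlapped each other. ERBB3 rose 1.55-fold in erastin-R cells (log2 fold change 0.63, SE 0.18, edgeR adjusted p = 0.00946) and 1.47-fold in RSL3-R cells (0.55, SE 0.18, adjusted p = 0.0223). The rise in RSL3-R cells did not pass without vehicle replicate 3 (adjusted p = 0.104), RSL3-R replicate 1 (0.0543) or RSL3-R replicate 2 (0.0799). ERBB4, the remaining receptor of the family, had 1 to 7 counts per library and was not tested.

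Per gene length, the receptor RNA was mostly EGFR in every library. Its share of the summed FPKM of the 3 receptors was 76.4% ± 2.13 in vehicle, 80.9% ± 1.67 in the erastin-R libraries and 88.7% ± 0.319 in those of RSL3-R (SD, n = 3). ERBB2 gave 22.2% ± 1.78, 17.2% ± 1.71 and 9.93% ± 0.288 of the sum. The ratio of EGFR to ERBB2 FPKM was 3.46 ± 0.391 in vehicle, 4.74 ± 0.577 in the erastin-R libraries and 8.94 ± 0.289 in those of RSL3-R. The RSL3-R libraries were above all others in this ratio. These are descriptions, since 3 libraries against 3 cannot give an exact permutation p under 0.10.

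The ligands did not move together. AREG rose in both treated groups and most in erastin-R cells, HBEGF fell in the erastin-R libraries and rose in those of RSL3-R, EREG rose in RSL3-R cells, and TGFA fell in both. AREG, EREG, HBEGF, TGFA and BTC bind EGFR, and EREG, HBEGF and BTC also bind ERBB4, while NRG1 binds ERBB3 and ERBB4. In erastin-R cells 1 ligand rose, 3 fell and 2 did not pass, beside 54.0% of all genes that passed (27.1% higher, 26.8% lower). In RSL3-R cells 3 rose, 2 fell and 1 did not pass, beside 48.7% of all genes (23.8% higher, 24.9% lower).

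The RefSeq promoter windows (GRCh38.p14, 250 bases before to 50 after the start) of the ligands AREG, EREG and HBEGF are printed because AREG and EREG are neighbours on chromosome 4 with different patterns, while EREG and HBEGF lie on different chromosomes with like patterns. They run 5′ to 3′ on the gene's strand, with capitals for matches to a CRE (TGACGTCA) or a GC box (GGGCGG, either strand).
AREG, chr4:74444886-74445185, plus strand: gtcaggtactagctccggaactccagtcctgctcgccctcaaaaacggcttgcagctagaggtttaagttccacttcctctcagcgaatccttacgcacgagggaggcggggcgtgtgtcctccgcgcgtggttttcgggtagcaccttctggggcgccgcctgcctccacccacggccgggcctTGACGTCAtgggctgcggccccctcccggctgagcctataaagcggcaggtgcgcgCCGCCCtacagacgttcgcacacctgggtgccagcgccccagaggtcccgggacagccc
EREG, chr4:74364895-74365194, plus strand: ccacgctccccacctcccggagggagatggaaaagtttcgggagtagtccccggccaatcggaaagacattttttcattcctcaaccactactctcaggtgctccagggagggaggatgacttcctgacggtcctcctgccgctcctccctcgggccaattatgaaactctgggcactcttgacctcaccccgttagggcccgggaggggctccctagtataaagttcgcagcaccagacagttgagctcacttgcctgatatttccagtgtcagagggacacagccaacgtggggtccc
HBEGF, chr5:140346554-140346853, minus strand: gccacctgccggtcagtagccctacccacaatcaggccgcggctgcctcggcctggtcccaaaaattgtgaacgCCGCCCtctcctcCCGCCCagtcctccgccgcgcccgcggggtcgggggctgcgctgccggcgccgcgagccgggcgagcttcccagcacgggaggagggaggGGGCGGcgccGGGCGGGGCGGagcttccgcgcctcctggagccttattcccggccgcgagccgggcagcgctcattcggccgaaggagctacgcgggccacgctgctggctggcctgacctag
The AREG window holds a CRE at -65 to -58 from the start, a motif found in 1.84% of the 34796 windows in the table, and 1 GC box. The HBEGF window holds 5 GC boxes, the last pair of them overlapping by a base, a motif found in 44.9% of windows. The EREG window holds neither these nor an AP-1 site (TGANTCA, in 7.73% of windows) or an amino acid response element (TGATGNAA, in 3.63%). Matches were searched on both strands and are descriptions of letters, not of binding.

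AREG, amphiregulin, an EGFR ligand of the epithelium (chr4:74445134-74455009, plus strand), had the largest rise of the members in erastin-R cells. Its level was 42.3, 38.2 and 36.5 CPM in vehicle, 109, 91.6 and 92.1 in erastin-R and 66.4, 69.7 and 69.8 in RSL3-R cells. The groups did not overlap, and RSL3-R cells lay between the others. AREG rose 2.50-fold in erastin-R cells (log2 fold change 1.32, SE 0.08, edgeR adjusted p = 2.44e-08), and 7.67% of all genes tested had a larger change. It rose 1.76-fold in RSL3-R cells (0.82, SE 0.08, adjusted p = 2.45e-06). Without erastin-R replicate 1, the highest library, the log2 fold change in erastin-R cells was 1.23.

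HBEGF, the heparin-binding ligand (chr5:140332843-140346631, minus strand), moved in opposite directions in the treated groups. Its level was 61.2, 66.6 and 67.4 CPM in vehicle, 54.6, 49.4 and 49.4 in erastin-R and 111, 109 and 114 in RSL3-R cells. Every erastin-R library was below and every RSL3-R library above the vehicle libraries. HBEGF fell 1.27-fold in erastin-R cells (log2 fold change -0.35, SE 0.07, edgeR adjusted p = 0.000705) and rose 1.71-fold in RSL3-R cells (0.77, SE 0.07, adjusted p = 5.13e-07).

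EREG, epiregulin (chr4:74365143-74388751, plus strand), had 13.0, 13.7 and 14.9 CPM in vehicle, 12.1, 11.6 and 12.2 in erastin-R and 19.1, 20.6 and 20.9 in RSL3-R cells. The RSL3-R libraries were the highest and the erastin-R libraries the lowest, without overlap. EREG rose 1.46-fold in RSL3-R cells (log2 fold change 0.54, SE 0.10, edgeR adjusted p = 0.000367). For erastin-R the log2 fold change was -0.21 (95% interval -0.43 to 0.0040, adjusted p = 0.0901) and did not pass.

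TGFA, transforming growth factor alpha (chr2:70447280-70554193, minus strand), had 33.6, 36.9 and 38.9 CPM in vehicle, 17.7, 18.3 and 19.7 in erastin-R and 30.0, 27.5 and 29.2 in RSL3-R cells. The groups did not overlap, and the erastin-R libraries were the lowest. TGFA fell 1.96-fold in erastin-R cells (log2 fold change -0.97, SE 0.09, edgeR adjusted p = 6.35e-07), just short of the fold needed for a call, which it reached without vehicle replicate 1 (-1.03) or erastin-R replicate 3 (-1.02). It fell 1.26-fold in RSL3-R cells (-0.33, SE 0.08, adjusted p = 0.00467).

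BTC, betacellulin (chr4:74744759-74794686, minus strand), was scarce, at 24 to 82 counts per library. It had 3.16 to 5.06 CPM in vehicle, 1.53 to 2.44 in the erastin-R libraries and 2.98 to 4.03 in those of RSL3-R. The erastin-R libraries lay below all others, and RSL3-R and vehicle overlapped. BTC fell 2.08-fold in erastin-R cells (log2 fold change -1.06, SE 0.24, edgeR adjusted p = 0.00229). Without vehicle replicate 3 that log2 fold change was -0.87, without erastin-R replicate 2 it was -0.92 and after quantile normalization with limma it was -0.94, so that BTC fell but was no longer called. For RSL3-R the log2 fold change was -0.26 (95% interval -0.74 to 0.23, adjusted p = 0.381).

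NRG1, neuregulin 1 (chr8:31639386-32767959, plus strand), had 25.5 to 31.2 CPM in vehicle, 30.3 to 35.7 in the erastin-R libraries and 20.8 to 23.5 in those of RSL3-R. The RSL3-R libraries lay below all others, and erastin-R overlapped vehicle. NRG1 fell 1.25-fold in RSL3-R cells (log2 fold change -0.32, SE 0.10, edgeR adjusted p = 0.0163). It did not pass after quantile normalization (adjusted p = 0.0563) or without vehicle replicate 3 (0.0790) or RSL3-R replicate 1 (0.121). For erastin-R the log2 fold change was 0.21 (95% interval 0.0034 to 0.42, adjusted p = 0.0800), and it passed without vehicle replicate 3 (adjusted p = 0.0360).

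**Figure D2:**
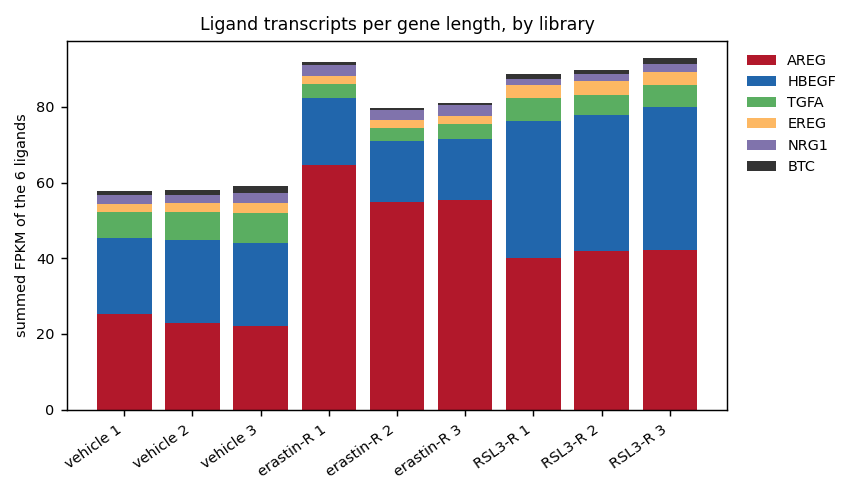
Stacked bars give the FPKM of the 6 ligands in each of the 9 libraries, with summed FPKM on the vertical axis from 0. AREG fills 68.3% to 70.3% of the erastin-R bars, and in the RSL3-R bars AREG is 1.10 to 1.17 times HBEGF.

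The ligand mixture per gene length differed between the groups. AREG made up 40.2% ± 3.34 of the summed ligand FPKM in vehicle, 69.1% ± 1.06 in the erastin-R libraries and 45.7% ± 0.809 in those of RSL3-R (SD, n = 3). HBEGF made up 36.6% ± 1.70, 19.9% ± 0.486 and 40.5% ± 0.612. The erastin-R libraries were the highest for the AREG share and the lowest for the HBEGF share, and neither overlapped another group. The ratio of AREG to HBEGF FPKM was 0.992 to 1.27 in vehicle, 3.39 to 3.64 in the erastin-R libraries and 1.10 to 1.17 in those of RSL3-R. The summed ligand FPKM was 58.3 ± 0.611 in vehicle, 84.2 ± 6.73 in the erastin-R libraries and 90.4 ± 2.19 in those of RSL3-R, and the treated groups overlapped. TGFA gave 12.5% ± 0.812 of the sum in vehicle, 4.41% ± 0.533 in the erastin-R libraries and 6.40% ± 0.343 in those of RSL3-R.

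With EPGN, 3 of the ligands lie in 486 kb of chromosome 4, in the order EPGN, EREG, AREG, BTC. EREG and AREG are 56.4 kb apart, and 290 kb separate AREG from BTC. In erastin-R cells AREG rose and BTC fell, and EREG did not pass. In RSL3-R cells EREG and AREG rose, and BTC did not pass. Of the ligands outside the 6, EGF, the ligand that gave the receptor its name, had 3.82 to 5.19 CPM in vehicle, 8.39 to 9.35 in the erastin-R libraries and 3.11 to 4.45 in those of RSL3-R. EGF rose 1.92-fold in erastin-R cells (log2 fold change 0.94, SE 0.16, edgeR adjusted p = 0.000262) and its log2 fold change in RSL3-R cells was -0.28 (95% interval -0.66 to 0.10, adjusted p = 0.217). Without vehicle replicate 1 EGF was called in erastin-R cells, at 1.02 on the log2 scale. EPGN had 1 to 3 counts per library, NRG2 0 to 2 and NRG4 0 to 6. NRG3 had 0 counts in every library, which allows up to 3 counts, or 0.174 to 0.195 CPM, for counting error only.

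ERRFI1, the feedback inhibitor of the receptors (chr1:8004404-8026308, minus strand), had the highest FPKM of the members and was higher in every treated library than in any vehicle library. Its level was 612, 616 and 630 CPM in vehicle, 1126, 1170 and 1182 in erastin-R and 1389, 1324 and 1392 in RSL3-R cells. The groups did not overlap. ERRFI1 rose 1.87-fold in erastin-R cells (log2 fold change 0.90, SE 0.05, edgeR adjusted p = 9.95e-09) and 2.21-fold in RSL3-R cells (1.14, SE 0.05, adjusted p = 7.80e-10), and 8.27% of all genes had a larger change in RSL3-R cells. Its FPKM was 4.75 ± 0.222 times that of EGFR in vehicle, 7.44 ± 0.766 times in the erastin-R libraries and 6.09 ± 0.0955 times in those of RSL3-R (SD, n = 3). The ratio was higher in all treated libraries than in all vehicle libraries, and it was largest in erastin-R cells. An antisense gene, AL034417.4, shares 3.70% of the ERRFI1 exon length and had 25 to 51 counts.

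**Figure D3:**
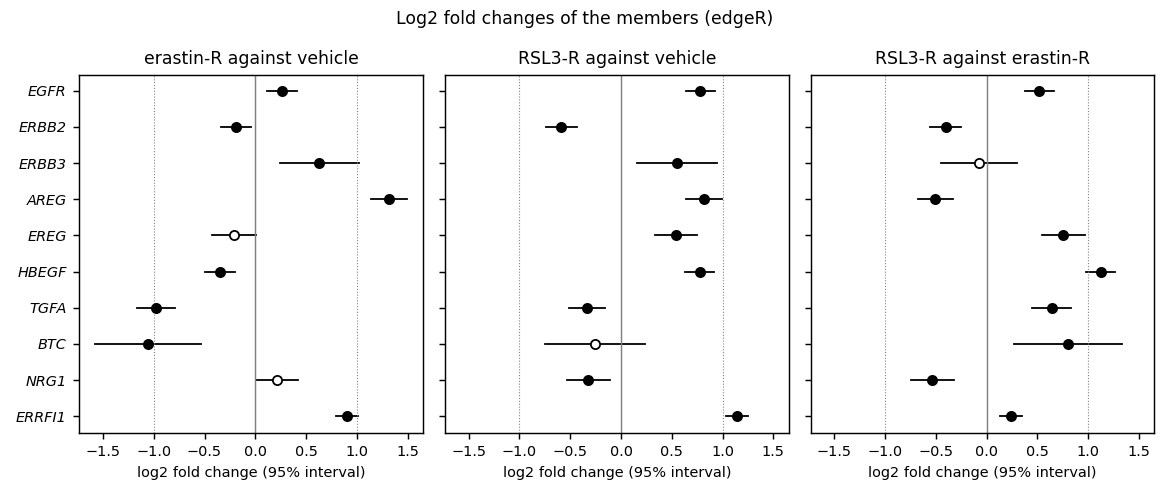
Points are edgeR log2 fold changes of the 10 members in 3 comparisons, lines are 95% intervals, filled points passed an adjusted p of 0.05 and dotted lines mark a log2 fold change of 1 in either direction. AREG, BTC, ERRFI1 and HBEGF each pass the dotted line in 1 comparison.

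RSL3-R and erastin-R cells were also compared directly. Here 6 members were higher and 3 lower in RSL3-R cells, and ERBB3 did not pass, against 49.2% of all genes that passed (22.3% higher, 26.9% lower). The 2 treated groups did not overlap for 9 members, beside 55.2% of all genes. HBEGF was the member called, 2.18-fold higher in RSL3-R cells (log2 fold change 1.12, SE 0.07, edgeR adjusted p = 2.77e-08), in a comparison that called 10.3% of all genes (6.86% higher, 3.48% lower). The other ligands that bind EGFR, except AREG, were also higher in RSL3-R cells: EREG 1.69-fold, TGFA 1.56-fold and BTC 1.74-fold. AREG was 1.42-fold lower (log2 fold change -0.50, SE 0.08, adjusted p = 0.000151), and NRG1 was 1.45-fold lower (-0.53, SE 0.10, adjusted p = 0.000537). EGFR was 1.43-fold higher, ERBB2 1.32-fold lower and ERRFI1 1.18-fold higher, each past the adjusted p. ERBB3 had a log2 fold change of -0.077 (95% interval -0.45 to 0.30, adjusted p = 0.741), and it changed sign in 2 alternatives. EGF, outside the 10, was 2.32-fold lower in RSL3-R than in erastin-R cells and was called. Without erastin-R replicate 1, BTC was also called, with a log2 fold change of 1.01, and it did not pass without erastin-R replicate 2 (adjusted p = 0.0635) or RSL3-R replicate 3 (0.0650).

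The order of the members by FPKM, which is per gene length, also differed. ERRFI1 was highest in every group, at a mean of 146 FPKM in vehicle, 273 in the erastin-R libraries and 324 in those of RSL3-R. In vehicle cells EGFR followed at 30.9 FPKM, then AREG at 23.4 and HBEGF at 21.3, which overlapped, then ERBB2 at 8.95 and TGFA at 7.27. NRG1 at 2.45 and EREG at 2.40 FPKM overlapped, and BTC at 1.42 and ERBB3 at 0.565 were lowest. In erastin-R cells AREG, at 58.3 FPKM, stood above EGFR at 36.9 without overlap. In RSL3-R cells EGFR at 53.2 FPKM was above AREG at 41.4 and HBEGF at 36.6, and ERBB2 at 5.96 overlapped TGFA at 5.78.

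Across the 9 libraries, which fall into 3 groups, the genes whose log2 CPM was most like that of a member were found by Pearson's r as a description. EGFR was most like ADAM17, the protease that frees several of its ligands (r = 0.993), and ATF6 (r = 0.992). ERRFI1 was most like HSPA5, an endoplasmic reticulum chaperone (r = 0.998), and GDF15 (r = 0.997). EREG was most like PNPLA4 (r = 0.996) and then HBEGF (r = 0.989), the only member among these nearest genes. AREG was nearest to UAP1 and PHF8, HBEGF to ARHGAP26 and ADAM9, and TGFA to NPTN and SETD7, each with r over 0.99. For ERBB3 (TTC21A, TPM2), BTC (XPR1, TCAIM) and NRG1 (FAM120A, DNAJC6) r was 0.937 to 0.977. Every r rests on the same 9 libraries.

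Other genes of the pathway were counted in lists of release factors, adaptors and kinases, turnover factors and outputs, without a test of the lists. These lists were also written with earlier results of these data known. Their counts over all 9 libraries stand beside the 54.0% of all genes that passed in erastin-R cells and the 48.7% in RSL3-R cells. Counts without erastin-R replicate 1 have no such share beside them. Of 6 genes of ligand release, 2 rose and 3 fell in erastin-R cells and 3 rose and 0 fell in RSL3-R cells, where 1 fell without erastin-R replicate 1. ADAM17 was 45.4, 50.7 and 54.3 CPM in vehicle, 69.3, 61.7 and 63.2 in erastin-R and 96.0, 91.4 and 103 in RSL3-R cells, without overlap of the groups. ADAM17 rose 1.29-fold with erastin (log2 fold change 0.37, SE 0.08, edgeR adjusted p = 0.00153) and 1.93-fold with RSL3 (0.95, SE 0.08, adjusted p = 4.08e-07). Named here as the gene most like EGFR, it was called in neither comparison with vehicle, and 3 genes of its list fell in erastin-R cells. Of 18 adaptors and core kinases, 6 rose and 4 fell in erastin-R cells, a share near the 54.0%, and 4 rose and 9 fell in RSL3-R cells. HRAS, a RAS GTPase, was called lower in RSL3-R cells at 0.499 times its vehicle level (95% interval -1.22 to -0.79 on the log2 scale, adjusted p = 2.17e-06), and it passed the fold threshold in 7 of 14 alternatives, with log2 fold changes of -1.06 to -0.93. It missed the threshold with DESeq2 (-0.989), after quantile normalization with limma (-0.953) and in the model of 2 groups (-0.996). It also missed it without vehicle replicate 1 or 2 or RSL3-R replicate 1 or 3.

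Of 10 genes of receptor turnover and inhibition, 5 rose and 1 fell in erastin-R cells and 3 rose and 2 fell in RSL3-R cells. CBLB, a ubiquitin ligase of the CBL family that marks active receptors for removal, was called in both. It was 16.4 to 18.6 CPM in vehicle, 31.2 to 41.9 in the erastin-R libraries and 42.1 to 45.7 in those of RSL3-R, with log2 fold changes of 1.09 (SE 0.11, edgeR adjusted p = 1.42e-06) and 1.34 (SE 0.11, adjusted p = 2.08e-07). Without erastin-R replicate 1 the change in erastin-R cells was 0.98, no longer called. Of 10 genes of ERK-pathway output, 4 rose and 1 fell in erastin-R cells, again near the 54.0%, and 8 rose and 2 fell in RSL3-R cells, where 48.7% of all genes passed. CCND1, cyclin D1, was 472 to 488 CPM in vehicle, 224 to 234 in the erastin-R libraries and 372 to 377 in those of RSL3-R. It fell by 1.05 on the log2 scale with erastin (SE 0.05, adjusted p = 2.71e-09) and by 0.36 with RSL3 (SE 0.05, adjusted p = 5.24e-05). Without erastin-R replicate 1, in erastin-R cells 6 adaptors and kinases fell, 7 turnover genes rose and 2 fell, and 2 output genes fell. In RSL3-R cells 5 adaptors and kinases rose, and 4 turnover genes rose and 3 fell, without that library. The share of all genes that passed without that library is not given here, and the 54.0% and 48.7% belong to all 9 libraries.

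**Figure D4:**
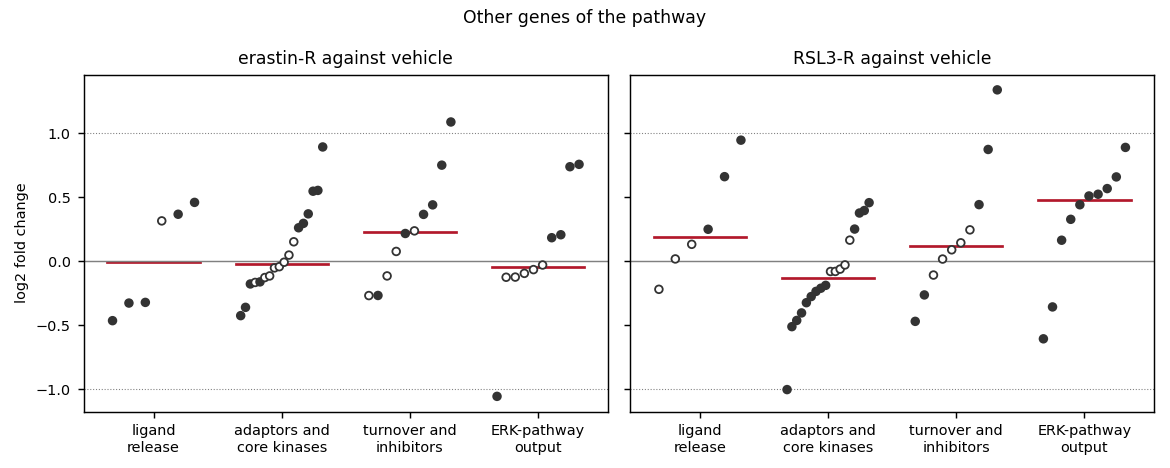
Each point is the log2 fold change (vertical axis) of a gene of 1 of 4 lists (horizontal axis) in 2 comparisons with vehicle, filled where the adjusted p was under 0.05, and the red line is the list's median. From left to right the medians were -0.0019, -0.024, 0.23 and -0.046 with erastin, beside -0.0042 for all genes tested, and 0.19, -0.13, 0.12 and 0.48 with RSL3, beside 0.0052.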

How the data were processed

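The 9 libraries came from poly(A)-selected RNA. The authors deposited raw counts for each gene and FPKM values (RPKM in their methods), made from uniquely mapped exonic reads. The submitters' notes name HISAT2 2.0.5 and featureCounts 1.5.0-p3, and the strand setting is not given in the sources used here. The coordinates of the 10 members equal GENCODE release 29 (GRCh38). Counts were tested with edgeR 4.0.16 (R 4.3.3): TMM scaling, filterByExpr, a quasi-likelihood model of all 9 libraries and 3 groups without covariates, and Benjamini-Hochberg adjustment. This replaced the Cufflinks test of the study's methods, which needs reads. FPKM served for levels between genes, which depend on the gene lengths used. Intervals are 95%. The steps were tested on simulated data. DESeq2 1.42.0, limma 3.58.1 after quantile normalization, no filter, models of 2 groups, a replicate block, no minimum fold and leaving out each library were alternatives. Named genes were the 10 members, the other family receptors and ligands, up to 3 called genes per pathway list, the 2 genes most like each member and genes sharing exons. Members and lists were chosen with earlier results of these data known. Promoters matched for 8 of 10 members. Protein sequences were not used here. The genes most like ERBB2 and 1 leukocyte marker are not reported here. Libraries of 15405102 to 17273464 counts gave a floor (3 counts) of 0.174 to 0.195 CPM.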

Additional observations from a re-analysis of the deposited data

Results flagged for a closer look

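HBEGF drew attention because its changes in the 2 treated groups differed in a direct test of RSL3-R against erastin-R cells. Against vehicle it changed by -0.35 with erastin and by 0.77 with RSL3 on the log2 scale, both against the same vehicle libraries. The difference was 1.12 on the log2 scale (edgeR adjusted p = 2.77e-08). That test also picked HBEGF, so its p-value is no separate support. Of the 10 members 6 were higher and 3 lower past the adjusted p in it, beside 49.2% of all genes (22.3% higher, 26.9% lower). HBEGF was the only member called, where 10.3% of all genes were called. All 3 erastin-R libraries lay below and all 3 RSL3-R libraries above the vehicle libraries. The cause was not tested.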

How the results depend on the processing

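Of the member changes under alternatives, 402 values kept their direction and side of the adjusted p threshold, 15 lost it, 1 gained it and 2 changed sign. The sign changes were both of ERBB3 in RSL3-R against erastin-R cells, at 0.021 without erastin-R replicate 1 and 0.063 without RSL3-R replicate 3 on the log2 scale, in a range of -0.18 to 0.063 with each library left out. In erastin-R cells 2 members were called, beside 13.4% of all genes. After quantile normalization with limma 1 was called, beside 1852 of the 16188 genes tested. With each library left out 1 to 3 were called. BTC missed the fold threshold after quantile normalization with limma and without vehicle replicate 3 or erastin-R replicate 2, and TGFA reached it without vehicle replicate 1 (-1.03) or erastin-R replicate 3 (-1.02). In RSL3-R cells 1 was called, beside 10.1% of all genes, and 1 with each library left out. Between RSL3-R and erastin-R cells 1 was called, beside 10.3% of all genes. With each library left out 1 to 2 were called there, the second being BTC without erastin-R replicate 1. The share of all genes called with a library left out is not given here. Without a minimum fold the counts were 8, 9 and 9, beside 54.0%, 48.7% and 49.2% of all genes, because fewer conditions applied. Changes that no longer passed were those of ERBB2 in erastin-R, ERBB3 and NRG1 in RSL3-R cells and BTC between them, with adjusted p up to 0.126, and NRG1 in erastin-R cells passed at 0.0360 without vehicle replicate 3. The other causes were not tested. Deviations from the group mean correlated at r -0.0904 to 0.0518 over the 9 pairs of libraries with the same replicate number. Over the 18 pairs with different numbers r was -0.0880 to 0.123. With 3 libraries per group this cannot show whether the numbers pair the libraries. With the replicate number as a block, 2, 1 and 1 members were called in the 3 comparisons, beside 2153, 1614 and 1652 of the 16188 genes tested. With this block the edgeR adjusted p of ERBB2 in erastin-R cells was 0.0601. BTC rests on 24 to 82 counts per library.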
